A study of Mus musculus with 4 samples.

Results

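The integrated stress response and the unfolded protein response were followed as 32 genes in bulk RNA sequencing of ILC1s (type 1 innate lymphoid cells) from mice. These are lymphocytes related to natural killer cells that reside in tissues such as the liver. The genes are a given list, matched by symbol among the 40481 genes of the count table. Of these, 19 are ATF4 and its targets and 13 are chaperones and other stress genes of the endoplasmic reticulum (ER). All 32 were found. Libraries 3 and 4, labelled knockout, came from Ncr1-iCre Inpp4b flox/flox mice. Libraries 1 and 2, labelled WT, came from Inpp4b flox/flox mice, with no iCre in the label. They serve as controls (n = 2 in each group). The cells were selected by the integrin CD49a, and a tissue, liver, is given for control library 1 alone. Ncr1 encodes the receptor NKp46 of natural killer cells and ILC1s, so the deletion is directed to NKp46-expressing cells, and the presence of iCre and the loss of Inpp4b cannot be told apart. The age of the mice and any pooling of animals are not stated in the labels. The study asks what the phosphatase INPP4B, which acts on a phosphoinositide upstream of AKT, does in ILC1s.

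In the integrated stress response, kinases that sense amino acid shortage, double-stranded RNA, haem shortage or ER stress phosphorylate the initiation factor eIF2. General translation then falls while translation of the transcription factor ATF4 rises, and ATF4 induces genes of amino acid uptake and synthesis, of redox defence and of feedback. The unfolded protein response adds the sensors IRE1 and ATF6, which act through splicing of Xbp1 mRNA and through cleavage of ATF6, and induce ER chaperones and the machinery that degrades misfolded proteins. Lymphocytes draw on both when they secrete cytokines and granule proteins. Gene counts measure neither the translation of ATF4 nor the splicing of Xbp1.

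The libraries held 42380840 to 54878210 counts. Levels are given as CPM, counts per 1000000 counts of the library after TMM scaling. A log2 fold change sets the libraries labelled knockout over the controls, so a positive one is higher in the libraries labelled knockout. Genes were tested with edgeR's quasi-likelihood test (two-sided), with Benjamini-Hochberg adjustment over 14863 genes and a threshold of 0.05. Whole-gene Inpp4b was at 142.5 and 86.0 CPM in libraries 3 and 4, labelled knockout, and at 78.7 and 106.5 CPM in the controls (log2 fold change 0.30, SE 0.28, adjusted p = 0.828). The targeted transcript was thus not lower, and the count sums all exons, so it does not check a deletion of some of them. The 12 ILC1 markers, Itga1 (CD49a) and Ncr1 among them, were all detected in each library and summed to 10997 and 11730 CPM in libraries 3 and 4, labelled knockout, and to 10814 and 11621 CPM in controls. Of these 12 markers, 3 were above both controls and 4 below both (Itga1, Ncr1, Tbx21 and Cd200r1), beside 19.5% and 20.8% of all genes. Ncr1, named in the iCre label, was at 1202 and 1077 CPM in libraries 3 and 4 against 1672 and 1772 CPM in controls. Its log2 fold change was -0.60 (edgeR adjusted p = 0.28). DESeq2 called Ncr1 lower (adjusted p = 0.0149), beside 1.26% of all genes called lower. The labels do not say how the iCre was inserted. Markers of other cells differed between the groups. All 14 myeloid markers were higher in both libraries labelled knockout than in either control, beside 19.5% of all genes. Of these 14, 9 passed edgeR's threshold, beside 0.141% of all genes called higher. The 14 markers summed to 3194 and 3831 CPM in libraries 3 and 4 and to 1033 and 1182 CPM in controls. None of them was at 0. Much of the sum in controls came from Itgax (480 and 492 CPM) and Ccr2 (148 and 168 CPM), with log2 fold changes of 0.11 and 0.40. Of 9 Kupffer cell markers 8 were tested. Of these 8, 5 were above both controls, beside 19.5% of all genes, and 1 (Clec4f) was below both, beside 20.8%. Of 7 neutrophil markers 4 were tested, and 3 were above both controls, beside 19.5% of all genes. edgeR called 0 of either list. The 10 T cell markers summed to 3158 and 4224 CPM in libraries 3 and 4 and to 2635 and 2614 CPM in controls. Of these 10, 8 were above both controls, beside 19.5% of all genes, and 1 was below both, beside 20.8%. The median log2 fold change of the 10 was 0.82, and edgeR called 1 higher, beside 0.141% of all genes. This was Trac, which was at 85.1 and 200.9 CPM in libraries 3 and 4 and at 7.31 and 5.67 CPM in controls. Trac was thus a small part of the list's sum in controls. Which of the 10 genes ILC1s express themselves was not tested, so the sum does not measure T cells. DESeq2 called 4 higher (Trac, Cd3e, Cd3d and Cd8a), beside 1.58% of all genes. Of the plasma and B cell markers, Ighm was the highest, at 633 and 792 CPM in libraries 3 and 4 and at 703 and 1032 CPM in controls, followed by Cd79b at 10.7 to 12.8 CPM and Igkc at 0.148 to 3.05 CPM. Ms4a1 and Cd79a reached at most 2.44 and 1.26 CPM, and Jchain, Mzb1, Sdc1, Tnfrsf17 and Pax5 at most 0.638 CPM, with Tnfrsf17 at 0 in all 4 libraries. None of the 5 tested markers of this list was called.

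The letters of the elements through which both responses are known to act were searched in RefSeq promoter windows (GRCm38.p6, the assembly also called mm10), which span 250 bases before to 50 after a gene start. The C/EBP-ATF response element (CARE), which ATF4 binds with C/EBP partners, was searched as TGATGNAA on both strands. It was found in the windows of 6 of 18 ATF4 arm members, namely Atf3, Trib3, Chac1, Asns, Slc7a11 and Vldlr, against 4.51% of 27025 genes. Slc7a5 had no window. These stretches are shown because the same 6 genes were among the lowest of the arm in level. Each line gives 20 bases on either side of the match in the direction of the gene, with the element's letters in capitals.
Atf3 (chr1:191183416-191183463, minus strand): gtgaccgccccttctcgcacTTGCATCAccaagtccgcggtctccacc
Trib3 (chr2:152344019-152344066, minus strand): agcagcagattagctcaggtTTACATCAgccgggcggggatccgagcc
Chac1 (chr2:119351029-119351076, plus strand): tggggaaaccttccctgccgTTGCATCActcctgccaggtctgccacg
Asns (chr6:7693205-7693252, minus strand): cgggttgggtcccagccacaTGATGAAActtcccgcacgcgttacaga
Slc7a11 (chr3:50443633-50443699, minus strand): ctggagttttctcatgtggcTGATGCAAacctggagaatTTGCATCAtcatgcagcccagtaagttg
Vldlr (chr19:27216800-27216847, plus strand): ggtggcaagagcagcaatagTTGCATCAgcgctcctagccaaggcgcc

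The ER stress element (ERSE), which ATF6 and XBP1 bind together with NF-Y, was searched as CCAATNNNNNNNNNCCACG, and its shorter form ERSE-II as ATTGG and CCACG with 1 base between them, both on either strand. These overlap by design with their parts, of which CCACG was found in 35.5% of genes and the CCAAT box in 41.1%. The full ERSE was found in 5 of the 11 ER arm members with a window (Hspa5, Hsp90b1, Calr, Pdia6 and Creld2), against 0.137% of genes, and in 0 of the 18 ATF4 arm windows. Hsp90b1 held 2 matches, on opposite strands. ERSE-II was found in Herpud1, against 0.0444% of genes, and Herpud1 also held CARE letters. The core of a further element bound by XBP1 and ATF6, searched as TGACGTG on both strands, was found in Hspa5 as the 1 ER arm member, against 2.22% of genes. Hyou1 and Manf had no window. The whole window of Hspa5 is shown because it is the most abundant member, followed by the matches of the other genes with 20 bases on either side. Capitals mark the ERSE or ERSE-II letters, which begin with CGTGG where the ERSE lies on the opposite strand. A match describes the letters and does not show binding. Only exact letters within the window were searched, so a gene with no match is not shown to lack the element. Both arms are lists of known members of these responses, so a share above that of all genes is not a result of these data.
Hspa5 (chr2:34771840-34772139, plus strand): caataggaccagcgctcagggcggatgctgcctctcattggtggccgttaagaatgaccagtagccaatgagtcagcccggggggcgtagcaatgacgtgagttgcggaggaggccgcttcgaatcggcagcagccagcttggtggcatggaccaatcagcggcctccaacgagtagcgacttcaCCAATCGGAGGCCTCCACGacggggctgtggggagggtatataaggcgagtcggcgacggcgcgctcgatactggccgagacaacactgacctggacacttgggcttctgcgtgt
Hsp90b1 (chr10:86705618-86705676, minus strand): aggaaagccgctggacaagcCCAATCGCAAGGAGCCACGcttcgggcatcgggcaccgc
Hsp90b1 (chr10:86705513-86705571, minus strand): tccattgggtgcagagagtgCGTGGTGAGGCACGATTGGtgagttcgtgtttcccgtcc
Calr (chr8:84847055-84847113, minus strand): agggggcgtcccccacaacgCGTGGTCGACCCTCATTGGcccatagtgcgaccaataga
Pdia6 (chr12:17266471-17266529, plus strand): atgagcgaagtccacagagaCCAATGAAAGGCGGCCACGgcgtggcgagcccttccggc
Creld2 (chr15:88819500-88819558, plus strand): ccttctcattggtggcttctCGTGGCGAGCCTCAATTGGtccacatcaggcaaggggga
Herpud1 (chr8:94386357-94386407, plus strand): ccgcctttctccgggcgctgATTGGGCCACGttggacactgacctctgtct

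None of the members passed the test between the genotypes. edgeR called 0 of the 30 members with enough counts to be tested, against 0.155% of all 14863 genes in either direction (0.141% higher, 0.0135% lower). At an unadjusted p under 0.05 edgeR also had 0 of 30, against 9.65% of all genes. DESeq2 called 0 of 30, against 2.85% of all genes. Chac1 and Vldlr had too few counts to be tested. Both libraries labelled knockout lay above both controls for 7 of the 30 tested members, against 19.5% of all genes, and below both for 3, against 20.8% of all genes. The first count is near the share among all genes and the second is lower than it, and no difference from that share was tested. The median log2 fold change was 0.13 over the 17 tested ATF4 arm members and 0.20 over the 13 ER arm members, beside -0.01 over all genes tested. A value that missed the threshold is not shown to be equal, so the 95% intervals are given for the genes on which each arm turns. In bulk samples, fewer cells of a type and less RNA per cell cannot be told apart.

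**Figure D1:**
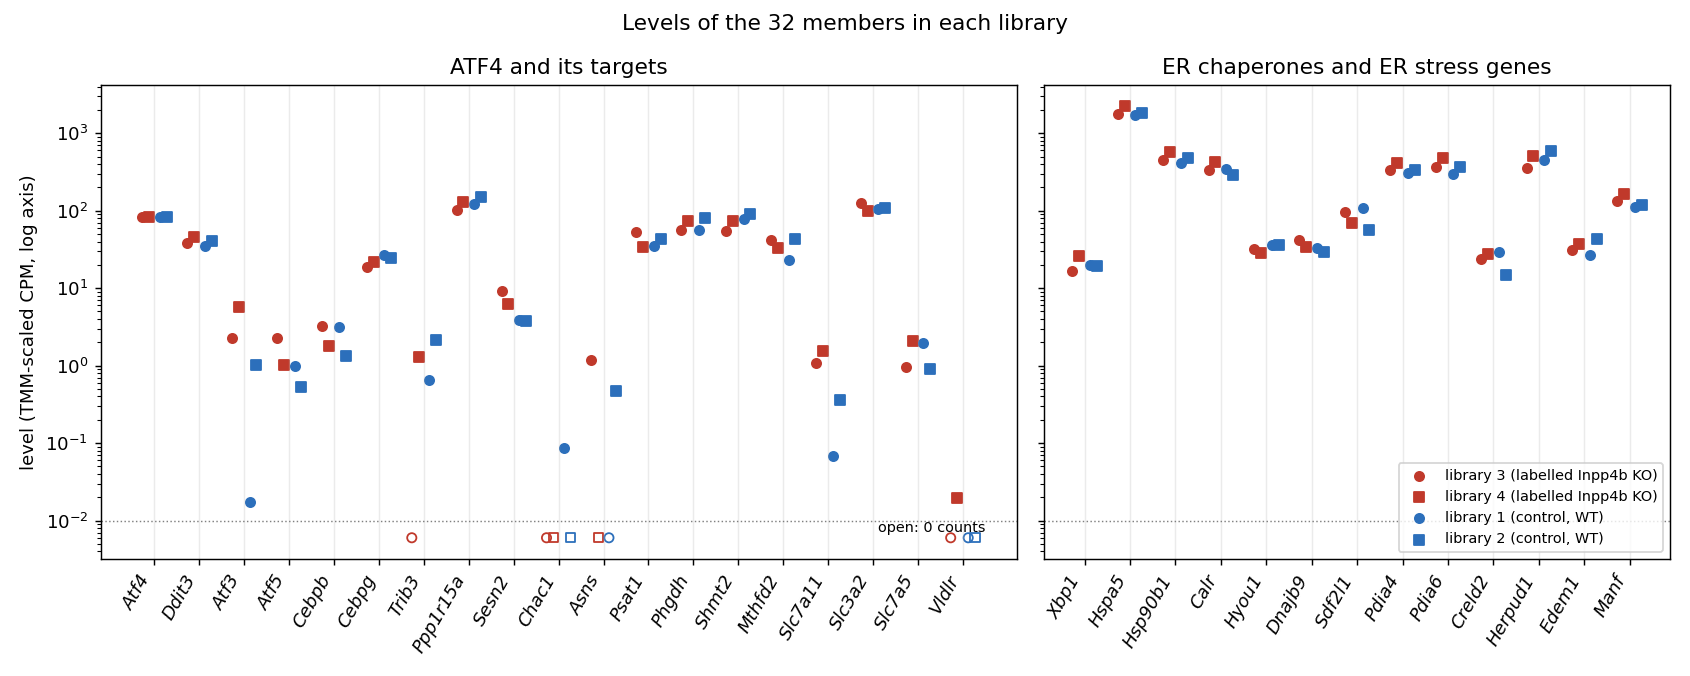
Level of each member in each library, as TMM-scaled CPM on a log axis, with ATF4 and its targets on the left and ER genes on the right. Filled red marks are libraries 3 and 4, labelled knockout, filled blue marks are control libraries 1 and 2, and open marks below the dotted line are libraries with 0 counts. Atf4 sits at 82.0 to 82.5 CPM in all 4 libraries, while Trib3, Chac1, Asns and Vldlr have libraries at 0.

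Among the transcription factors, Atf4 was the steadiest member. Atf4 (ENSMUSG00000042406, chromosome 15, 80255184 to 80257541 in mm10) was at 82.0 and 82.3 CPM in libraries 3 and 4, labelled knockout, and at 82.5 and 82.1 CPM in controls. The 4 libraries were nearly equal, and the groups overlapped. Atf4 averaged 82.2 ± 0.233 CPM in the libraries labelled knockout and 82.3 ± 0.229 CPM in controls (SD, n = 2 each). Its log2 fold change was -0.00 (SE 0.15, adjusted p = 0.998), with a 95% interval of -0.37 to 0.37, which spans 0.774-fold to 1.29-fold. Replicates of a gene differed by a median of 0.38 on the log2 scale between the libraries labelled knockout and 0.36 between the controls over all genes tested, while for Atf4 library 4 over library 3 was 0.0058 and control library 2 over control library 1 was -0.0057.

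Ddit3, which encodes the pro-apoptotic factor CHOP and lies downstream of ATF4, was expressed in each library. Its exons overlap those of Mars on the other strand and those of a further entry named Ddit3 on the same strand. The strand setting of the counting is not given, so whether reads within the overlap with Mars were told apart is not known. On the same strand such a setting cannot tell reads apart. Ddit3 was at 38.1 and 45.7 CPM in libraries 3 and 4, labelled knockout, and at 35.4 and 40.6 CPM in controls. The groups overlapped (log2 fold change 0.14, SE 0.21, 95% interval -0.38 to 0.66, adjusted p = 0.932). Cebpg, a C/EBP partner of ATF4, was at 18.6 and 21.9 CPM in libraries 3 and 4 against 26.8 and 24.6 CPM in controls. Both libraries labelled knockout were below both controls for Cebpg, but the fold change of -0.35 (95% interval -0.95 to 0.26) was not called. Cebpb, another C/EBP factor that is also abundant in myeloid cells, was at 3.23 and 1.80 CPM in libraries 3 and 4 against 3.19 and 1.33 CPM in controls. Atf5, an ATF4 target linked to mitochondrial stress, was at 2.30 and 1.02 CPM in libraries 3 and 4 against 1.0 and 0.529 CPM in controls. The groups overlapped for Cebpb, while both libraries labelled knockout were above both controls for Atf5, the nearest pair by a narrow margin. Their 95% intervals were wide at these low counts, -1.55 to 1.85 for Cebpb and -0.96 to 3.20 for Atf5.

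Atf3, a stress-induced repressor and activator that is also an immediate early gene, had the largest log2 fold change of the tested members and rested on few counts. It had 99 and 295 counts in libraries 3 and 4, labelled knockout, and 1 and 48 counts in controls, which is 2.30 and 5.70 CPM in libraries 3 and 4 against 0.0172 and 1.02 CPM in controls. Both libraries labelled knockout were above both controls, and on the log2 scale control library 2 exceeded control library 1 by 5.88, more than the fold change between the groups. The log2 fold change was 2.96 (SE 1.46, 95% interval -0.56 to 6.49, adjusted p = 0.588), and it was 1.98 without control library 1 and 7.67 without control library 2. With no filter on low counts edgeR called Atf3 higher (adjusted p = 0.0302), beside 1.25% of 23999 genes called higher in that fit. No other member was called under any of the 12 alternatives. All 14 myeloid markers and 8 of 10 T cell markers were above both controls as well. Of 15 immediate early and heat shock genes, 8 were above both controls (Fos, Jun, Egr1, Ier3, Hspa1a, Hspa1b, Zfp36 and Nr4a1), beside 19.5% of all genes, and the other 7 overlapped. Among those 7, Ier2, Junb and Jund had log2 fold changes of -0.44, -0.37 and -0.11. The 15 genes summed to 958 and 1433 CPM in libraries 3 and 4 and to 1179 and 942 CPM in controls. The part of these genes and markers in the Atf3 value was not tested.

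**Figure D2:**
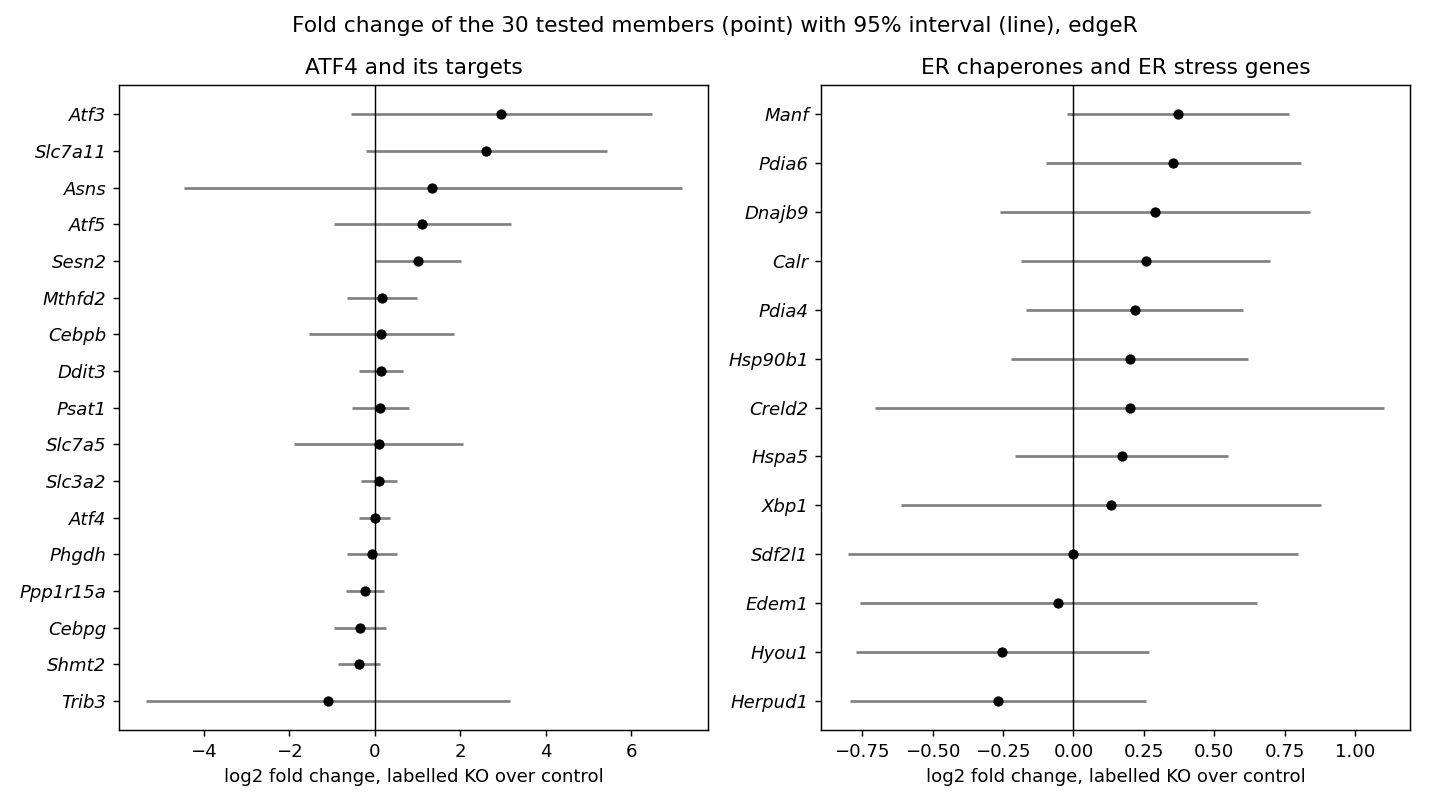
Log2 fold change of the 30 tested members, libraries labelled knockout over controls, with the 95% interval of the edgeR fit as a line, sorted within each arm. All 30 intervals include 0, and those of Asns, Trib3, Atf3 and Slc7a11, which had few counts, are the widest.

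The feedback genes of the response had fold changes of both signs, none of which was called. Ppp1r15a, which encodes GADD34, the subunit that directs a phosphatase to eIF2, was at 102.6 and 128.9 CPM in libraries 3 and 4, labelled knockout, and at 122.2 and 148.8 CPM in controls, with overlapping groups (log2 fold change -0.23, 95% interval -0.68 to 0.22). Per length it was the highest of the ATF4 arm, at 42.8 CPM per kb of exon over the 4 libraries, followed by Atf4 at 34.9. Sesn2, which encodes the leucine sensor Sestrin 2 that restrains mTORC1, was at 9.17 and 6.16 CPM in libraries 3 and 4 against 3.93 and 3.73 CPM in controls. Both libraries labelled knockout were above both controls, and Sesn2 had the smallest adjusted p of all members (log2 fold change 1.0, SE 0.42, 95% interval -0.01 to 2.01, edgeR adjusted p = 0.522). Its fold change was 0.67 to 1.23 when each library was left out in turn. Trib3, a pseudokinase that restrains ATF4 and AKT, had 0 and 67 counts in libraries 3 and 4 against 38 and 100 counts in controls, so that 1 library labelled knockout had none while the other lay between the controls. Chac1, which encodes a glutathione-degrading enzyme that is among the most sensitive ATF4 targets, had 0 counts in 3 libraries and 5 counts in control library 1. A count of 0 allows up to 3 counts, or 0.0517 to 0.0698 CPM depending on the library, so Chac1 was near or below the limit of detection in both groups.

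The enzymes of amino acid synthesis comprised a well-expressed serine and one-carbon set and Asns, which had few or no reads. Phgdh and Psat1 encode the enzymes of the first steps of serine synthesis. Phgdh was at 56.6 and 74.0 CPM in libraries 3 and 4, labelled knockout, and at 56.1 and 80.7 CPM in controls. Psat1 was at 52.6 and 33.7 CPM in libraries 3 and 4 against 35.3 and 43.6 CPM in controls. In both genes the 2 replicates of a group differed by more than the group means did. Shmt2 and Mthfd2 encode the mitochondrial enzymes that pass the one-carbon unit of serine to folate. Shmt2 was at 55.2 and 74.3 CPM in libraries 3 and 4 against 77.9 and 89.7 CPM in controls, both libraries labelled knockout lying below both controls (log2 fold change -0.37, 95% interval -0.87 to 0.13, adjusted p = 0.646). Mthfd2 was at 41.6 and 32.8 CPM in libraries 3 and 4 against 23.3 and 43.2 CPM in controls. Asns, which encodes asparagine synthetase, had 51 and 0 counts in libraries 3 and 4 and 0 and 22 counts in controls. Each group thus held 1 library with Asns reads and 1 without, and the fold change had no fixed sign when libraries were left out (-6.59 to 7.92).

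Of the amino acid transporters, only the shared heavy chain was abundant. Slc3a2, the heavy chain (CD98) that pairs with several light chains, was at 126.9 and 99.3 CPM in libraries 3 and 4, labelled knockout, and at 105.2 and 107.7 CPM in controls (log2 fold change 0.09, 95% interval -0.33 to 0.51). Its light chain for leucine uptake, Slc7a5 (LAT1), was at 0.954 and 2.09 CPM in libraries 3 and 4 against 1.95 and 0.910 CPM in controls. The cystine transporter light chain Slc7a11 had 46 and 79 counts in libraries 3 and 4 against 4 and 17 counts in controls, or 1.07 and 1.53 CPM in libraries 3 and 4 against 0.0690 and 0.360 CPM in controls. Both libraries labelled knockout were above both controls, but the interval of its log2 fold change of 2.60 reached from -0.21 to 5.43 (adjusted p = 0.548). Like Atf3, Slc7a11 is known to be expressed by activated macrophages, and the part of the higher myeloid markers in its value was not tested. Vldlr, a lipoprotein receptor induced through ATF4 in other cells, had 1 count in library 4 and 0 in the others. Per kb of exon over the 4 libraries, Slc3a2 stood at 31.1 CPM, Slc7a5 at 0.398 and Slc7a11 at 0.0543.

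Read against the promoter letters above, the members with CARE letters were among the lowest of the ATF4 arm. The 6 genes with an exact match spanned 0.00048 to 1.05 CPM per kb of exon averaged over the 4 libraries, with a median of 0.103. The 12 genes with a window and no exact match in it, which are not shown to lack the element, spanned 0.609 to 42.8 CPM per kb. Their median was 16.7. Atf5, which has no match, lay below Atf3, which has one, so the ranges overlap by that pair. Slc7a5, with no window, was at 0.398 CPM per kb. In the ER arm the order was the other way, with 17.3 to 446 CPM per kb and a median of 120.2 for the 6 genes with ERSE or ERSE-II letters, against 5.37 to 144 CPM per kb and a median of 13.6 for the 5 with neither. This was noticed after the levels were known and is a description of 4 libraries labelled as 1 cell type, with no test. Myeloid and T cell markers were also detected in these bulk libraries, so the levels need not be those of ILC1s alone.

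**Figure D3:**
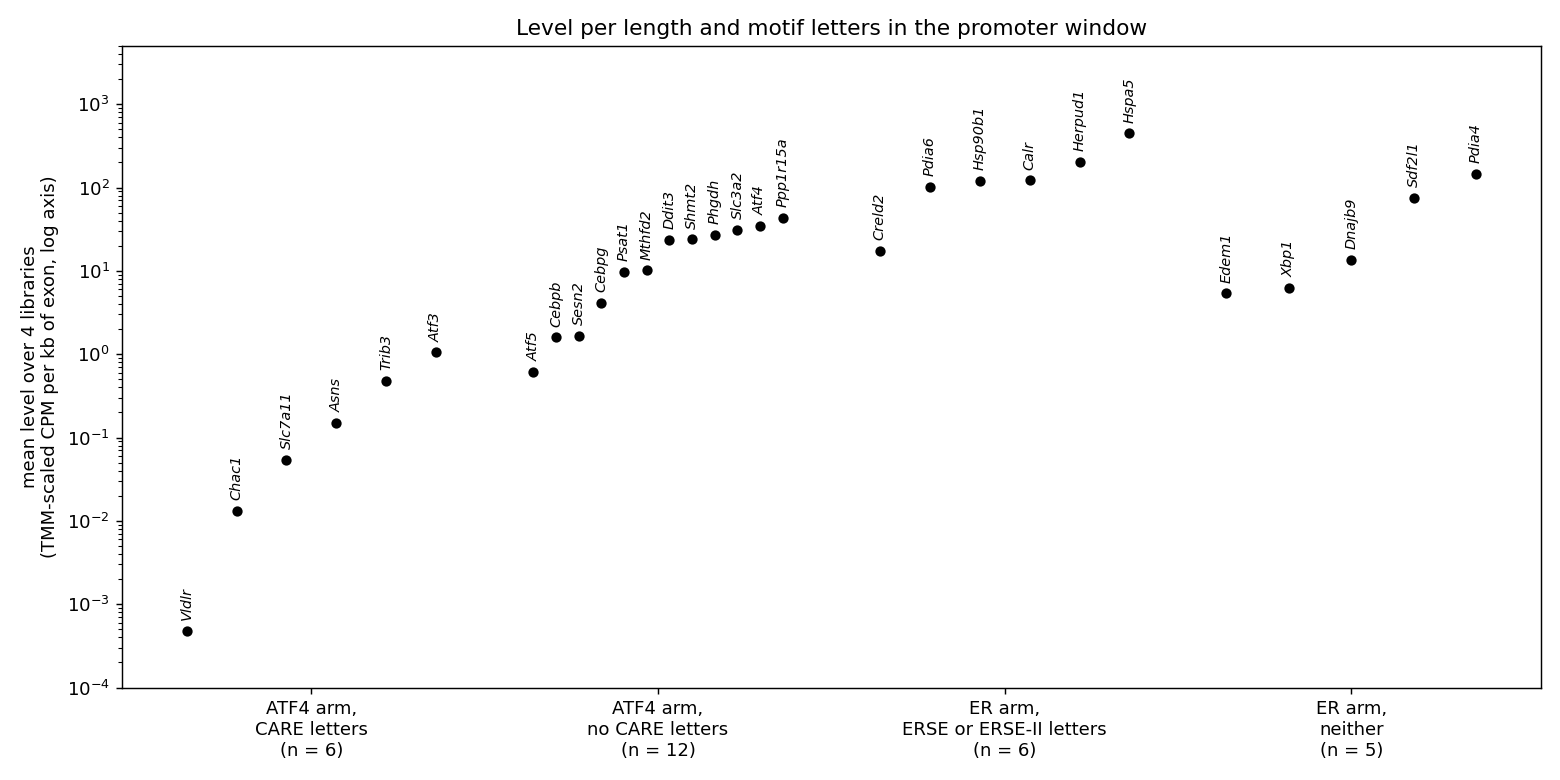
Mean level of each member over the 4 libraries per kb of exon (TMM-scaled CPM per kb, log axis), by whether the promoter window holds the element's letters, where each point is a gene. The ATF4 arm genes with CARE letters lie at or below 1.05 CPM per kb, and the ER arm genes with ERSE or ERSE-II letters at or above 17.3 CPM per kb.

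The 13 ER genes took 4005 and 4997 CPM in sum in libraries 3 and 4, labelled knockout, and 3884 and 4221 CPM in controls, and none was called. The transcription factor Xbp1 was at 16.6 and 26.1 CPM in libraries 3 and 4, labelled knockout, and at 19.7 and 19.2 CPM in controls, so that the libraries labelled knockout lay on either side of the controls (log2 fold change 0.13, SE 0.31, 95% interval -0.61 to 0.88, adjusted p = 0.965). Hspa5, which encodes BiP, the HSP70 chaperone of the ER that also holds the stress sensors inactive, was at 1784 and 2214 CPM in libraries 3 and 4 against 1716 and 1836 CPM in controls. Hspa5 averaged 1999 ± 304 CPM in the libraries labelled knockout and 1776 ± 85.3 CPM in controls (SD, n = 2 each), and library 3, labelled knockout, lay between the controls (log2 fold change 0.17, SE 0.16, 95% interval -0.21 to 0.55, adjusted p = 0.828). That interval spans 0.867-fold to 1.46-fold. Per kb of exon Hspa5 stood at 446 CPM, above 99.1% of the genes tested.

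The other chaperones and cofactors of BiP had values on both sides of the controls. Hsp90b1, the ER HSP90 (GRP94) that folds integrins and Toll-like receptors, was at 451 and 574 CPM in libraries 3 and 4, labelled knockout, and at 407 and 485 CPM in controls. Calr, the lectin chaperone calreticulin, was at 333 and 429.7 CPM in libraries 3 and 4 against 350.2 and 288 CPM in controls. In both genes library 4 was the highest and the groups overlapped. Hyou1, a nucleotide exchange factor of BiP, was at 32.4 and 28.5 CPM in libraries 3 and 4 against 36.4 and 36.2 CPM in controls, the 1 ER arm member with both libraries labelled knockout below both controls (log2 fold change -0.25, 95% interval -0.77 to 0.27). Its fellow BiP cofactor Dnajb9, which also represses IRE1, was at 42.1 and 33.9 CPM in libraries 3 and 4 against 32.7 and 29.5 CPM in controls (log2 fold change 0.29, 95% interval -0.26 to 0.84). Sdf2l1, a partner of ER HSP40 proteins, was at 95.2 and 69.3 CPM in libraries 3 and 4 against 108.3 and 56.3 CPM in controls. The gap between the 2 controls of Sdf2l1 exceeded the gap between libraries 3 and 4, and the group means were equal at 82.3 CPM.

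The disulphide enzymes and the secreted factor Manf had positive fold changes, none of which passed the test. Pdia6, a protein disulphide isomerase, was at 371 and 479.9 CPM in libraries 3 and 4, labelled knockout, and at 296 and 369 CPM in controls (log2 fold change 0.36, 95% interval -0.10 to 0.81, adjusted p = 0.624). Its relative Pdia4 was at 332 and 411 CPM in libraries 3 and 4 against 303 and 337 CPM in controls (log2 fold change 0.22, 95% interval -0.17 to 0.60). Both were highest in library 4, and library 3 of Pdia4 lay between the controls. Manf, a stress-induced ER protein that is also secreted, was at 134 and 165 CPM in libraries 3 and 4 against 113 and 119 CPM in controls. Both of its libraries labelled knockout were above both controls (log2 fold change 0.37, SE 0.16, 95% interval -0.02 to 0.76, adjusted p = 0.545). Creld2, an isomerase-like partner of Manf in stress induction, was at 23.5 and 27.2 CPM in libraries 3 and 4 against 29.5 and 14.6 CPM in controls, the controls being the extremes.

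The 2 genes of ER-associated degradation had negative fold changes that were not called. Herpud1, a membrane protein that organises the retrotranslocation complex, was at 358 and 501 CPM in libraries 3 and 4, labelled knockout, and at 445 and 589 CPM in controls (log2 fold change -0.27, 95% interval -0.79 to 0.26). It was the second of the ER arm per length, at 203 CPM per kb of exon. Edem1, which extracts misfolded glycoproteins from the folding cycle, was at 31.0 and 37.0 CPM in libraries 3 and 4 against 27 and 43.6 CPM in controls, the controls again being the extremes.

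The median of the ER arm stayed positive under all alternatives and was smallest without library 4, labelled knockout. Library 4 was above library 3 for 10 of the 13 ER genes, by a median of 0.31 on the log2 scale, while control library 2 was above control library 1 for 7 of the 13, by a median of 0.07. The median log2 fold change of the arm was 0.20 with all libraries, 0.03 without library 4 and 0.30 without library 3, each labelled knockout. That of the ATF4 arm was 0.13 with all libraries and -0.03 without library 3. The ERSE-bearing genes had log2 fold changes of 0.17 to 0.36 (median 0.20, that of the arm), and ERSE-II-bearing Herpud1 had -0.27. The 5 with neither had -0.05 to 0.29, and Hyou1 and Manf, with no window, had -0.25 and 0.37. In the ATF4 arm the tested genes with CARE letters, which had few counts, had -1.09 to 2.96 (median 1.97). Those with a window and no match had -0.37 to 1.12 (median 0.11). No difference by letters was tested.

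Genes around the members gave few differences, and none was called by edgeR. Of the 14 genes of eIF2 control, 0 had an unadjusted p under 0.05 (median log2 fold change 0.05). The smallest p-values among them were those of the exchange factor subunits Eif2b1 (0.37) and Eif2b2 (0.23) and of Eif2s1 (0.12), the values being log2 fold changes. The kinase genes were expressed in all libraries, with Eif2ak1, Eif2ak2, Eif2ak3 and Eif2ak4 (HRI, PKR, PERK and GCN2) at 4.62 to 59.2 CPM. Of 9 ER stress sensors and processing genes, 1 was lower at an unadjusted p under 0.05, against 5.17% of all genes. This was Mbtps2, which encodes the site-2 protease that releases ATF6, at 6.42 and 11.7 CPM in libraries 3 and 4, labelled knockout, and at 14.7 and 21.1 CPM in controls (log2 fold change -0.98, SE 0.40, adjusted p = 0.515). Ern1, which encodes IRE1, was at 10.6 and 5.78 CPM in libraries 3 and 4 against 12.7 and 15.9 CPM in controls (log2 fold change -0.81, adjusted p = 0.59), and Atf6b had 0.36. The 20 cytosolic tRNA synthetases, of which many are ATF4 targets, had 0 with an unadjusted p under 0.05 and a median of -0.07, with Farsb (0.34), Tars (-0.28) and Kars (0.17) having the smallest p-values.

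Among 18 further genes described as ATF4-dependent, 14 were tested, of which 3 had an unadjusted p under 0.05, namely 2 with positive and 1 with negative fold changes, against 4.48% and 5.17% of all genes. Nupr1, a small stress-induced chromatin protein, was at 12.9 and 15.9 CPM in libraries 3 and 4, labelled knockout, and at 1.52 and 3.37 CPM in controls. Both libraries labelled knockout were above both controls (log2 fold change 2.56 with SE 0.49, edgeR adjusted p = 0.226). DESeq2 called Nupr1 (adjusted p = 5.4e-05), beside 1.58% of all genes called higher. Myeloid markers were also higher (14 of 14 above both controls, beside 19.5% of all genes), and their part in the Nupr1 value was not tested. Ddit4, which encodes the mTORC1 inhibitor REDD1, was at 27.5 and 31.3 CPM in libraries 3 and 4 against 17.7 and 13.4 CPM in controls (log2 fold change 0.92 with SE 0.27, edgeR adjusted p = 0.379). Slc1a5, a glutamine transporter gene, was at 20.5 and 16.4 CPM in libraries 3 and 4 against 29.2 and 29.8 CPM in controls (log2 fold change -0.67 with SE 0.25, edgeR adjusted p = 0.481). The secreted stress factors Gdf15 and Fgf21 had at most 2 counts in any library.

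The wider set of ER folding, translocation and degradation genes likewise had no gene called by edgeR. Of 43 genes 42 were tested, and DESeq2 called 0 of them, against 2.85% of all genes. An unadjusted p under 0.05 was reached by 6 with positive and 0 with negative fold changes, against 4.48% and 5.17% of all genes. The median log2 fold change was 0.10, with 24 positive and 18 negative values. Both libraries labelled knockout lay above both controls for 16 of the 42, against 19.5% of all genes. They lay below both controls for 2, against 20.8% of all genes, and no difference from these shares was tested. Edem2, a mannosidase-family gene of degradation, was at 69.8 and 85.3 CPM in libraries 3 and 4, labelled knockout, and at 48.3 and 52.9 CPM in controls (log2 fold change 0.62, SE 0.19, adjusted p = 0.385). Dnajb11, an HSP40 cofactor of BiP, had 0.44 (SE 0.14, adjusted p = 0.402), and Sec61g, a subunit of the translocation channel, had 0.44 (SE 0.14, adjusted p = 0.404). The 9 mitochondrial stress genes had 0 with an unadjusted p under 0.05 and a median of 0.08, the smallest p-values being those of the protease Lonp1 (-0.75) and the chaperonins Hspe1 (0.37) and Hspd1 (0.22). The 15 immediate early and heat shock genes had a median of 0.65, and 4 of them, each with a positive fold change, had an unadjusted p under 0.05, against 4.48% of all genes with a positive one. Cytosolic Hspa1a was at 10.3 and 11.4 CPM in libraries 3 and 4 against 2.0 and 2.18 CPM in controls (log2 fold change 2.37, SE 0.39, edgeR adjusted p = 0.166), and DESeq2 called it and Fos higher, beside 1.58% of all genes.

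**Figure D4:**
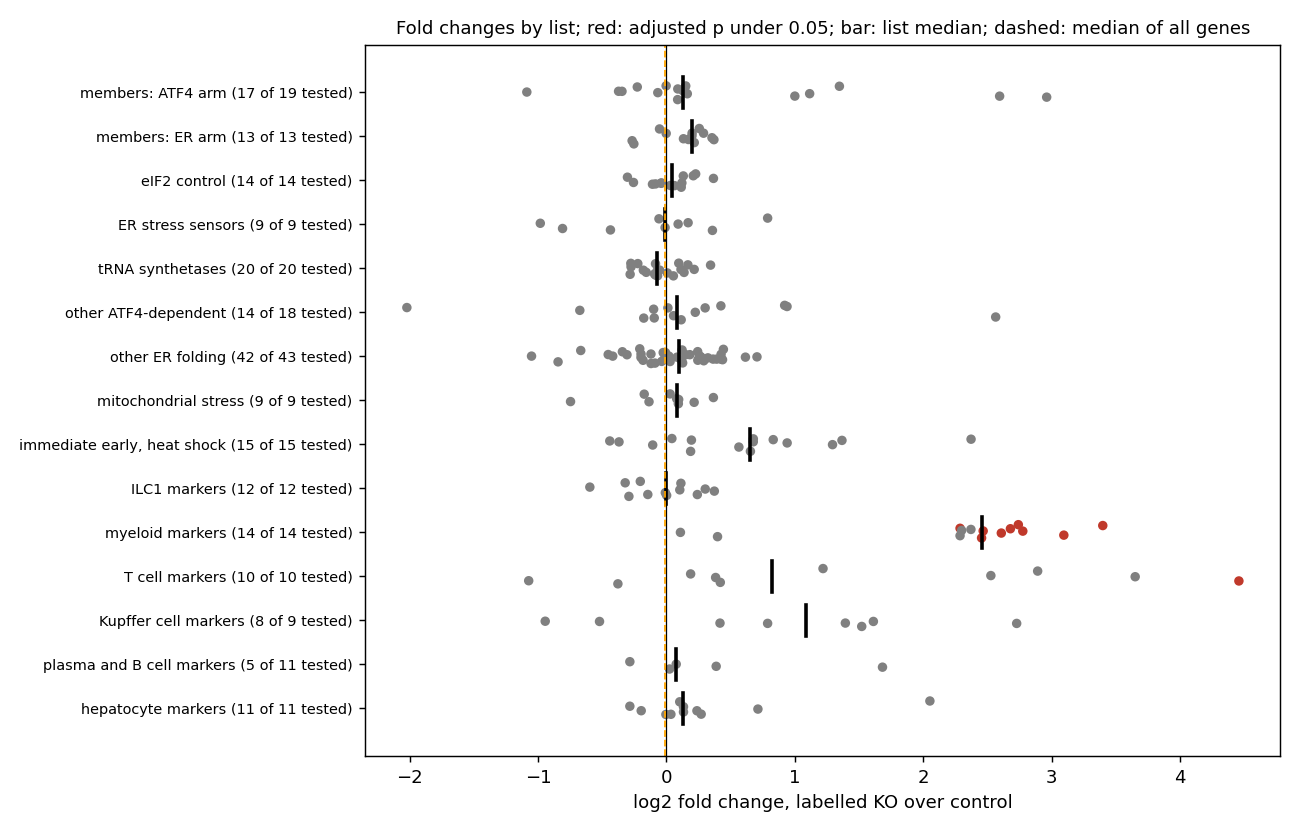
Log2 fold change (labelled knockout over control) of each tested gene in the 2 arms, the wider pathway lists and marker lists of other cells, with a black bar at each list's median and a dashed line at the median of all genes. Red points passed the edgeR threshold; they are 9 myeloid markers and 1 T cell marker, while both arms of the stress responses have medians of 0.13 and 0.20 and no red point.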

How the data were processed

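The authors deposited raw gene counts of the 4 libraries in 1 table, as whole numbers that sum to unequal totals. The tools named in the submitters' processing notes are STAR, featureCounts, Subread, DESeq2 and bcl2fastq, with the build mm10. Each tool's role, the annotation and the strand setting are not given in the sources used here. Exon bases of 11 of the 32 members overlap another gene (Ddit3 and Mars among them). Whether reads within these overlaps were told apart is not known. For Ddit3, Cebpg, Hsp90b1, Pdia4 and Manf an overlapping gene lies on the same strand, where a strand setting cannot tell reads apart. The 276 repeated lines of the 40757, identical in counts, were dropped, and 0 sample columns were unused.

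Genes were filtered with filterByExpr, scaled by TMM and fitted with robust edgeR 4.0.16 (R 4.3.3). Genotype was the single term, which left 2 residual degrees of freedom. SE came from the quasi-likelihood F. Alternatives were limma 3.58.1 (voom), DESeq2 1.42.0, DESeq2 size factors, library totals only, other count filters, non-robust estimation, leaving out each library and, added after seeing the data, a replicate block. The fit was tested on simulated data, where it called 15 of 50 genes with a log2 fold change of 1 and 38 of 50 with 2. It also made 16 false calls among 14293 genes. A log2 fold change of 1 was thus mostly missed. Levels per kb used exon lengths of GENCODE M21 (same assembly). The labels do not say whether the libraries stem from different animals, so p-values reflect only how these samples spread, possibly for technical reasons. Replicates differed beyond sampling noise (chi-square per degree of freedom 89.6 in the libraries labelled knockout, 98.6 in controls). Floors cover counting error only. The members and lists were chosen with earlier results of these data known. All 32 members were named. Of each wider pathway list, up to 3 genes with the smallest p were named, and other genes were chosen after their values were seen. The values of 1 marker gene are not reported here.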

Additional observations from a re-analysis of the deposited data

How the results depend on the processing

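The count table's headers number the libraries 1 and 2 within each genotype, while the sample labels number them 1 to 4, and nothing says that a number marks a shared animal or day. Over 14863 genes the number 1 minus number 2 differences of the 2 genotypes correlated at r = 0.0709, a description across genes. A replicate block by header number, chosen after seeing the data, left 1 residual degree of freedom. edgeR then called 0 genes higher and 0 lower, with 1709 genes (11.5%) at an unadjusted p under 0.05, among them 1 ATF4 arm member (Atf3) and 3 ER arm members (Pdia6, Herpud1 and Manf), none called. The block gave arm medians of 0.10 and 0.20 and a Sdf2l1 log2 fold change of 0.0560. Without the block, 21 genes were called higher and 2 lower. The counts were 299 and 264 with no filter on low counts, 40 and 9 with at least 50 counts in at least 2 libraries, and 235 and 188 with DESeq2, while 6 were lower with library totals only. They ranged from 0 to 18 higher and from 0 to 2 lower when each library was left out, with 0 higher without library 4, labelled knockout, 1 without control library 1 and 1 without control library 2. With no filter on low counts, 1 ATF4 arm member (Atf3, log2 fold change 2.96) and 2 genes of the wider lists (Nupr1, Ddost) were called, and DESeq2 called 1 gene of the wider lists (Nupr1). No ER arm member was called under any alternative run. Values near 0 changed sign. Atf4 had 0.00542 with DESeq2 size factors and 0.00543 with DESeq2. Sdf2l1 had 0.00282 with DESeq2 size factors, 0.00302 with DESeq2 and 0.0221 with limma-voom. Edem1 had 0.0134 with limma-voom. Leaving out each library turned the sign of 14 members. Their values ranged from -6.59 to 7.92 for Asns, -0.36 to 0.91 for Cebpb, -0.22 to 0.79 for Creld2, -0.0207 to 0.25 for Ddit3, -0.36 to 0.34 for Edem1, -0.0092 to 0.34 for Hsp90b1, -0.0202 to 0.30 for Hspa5, -0.22 to 0.68 for Mthfd2, -0.31 to 0.22 for Phgdh, -0.25 to 0.39 for Psat1, -0.39 to 0.55 for Sdf2l1, -0.12 to 0.23 for Slc3a2, -0.62 to 0.74 for Slc7a5 and -0.26 to 0.40 for Xbp1. The median of the ATF4 arm ranged from -0.0331 to 0.23 and that of the ER arm from 0.03 to 0.30. Where a library was left out, the lone sample of its group was assumed to vary like the other group. The causes were not tested.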

Other observations

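Some ER genes differed more between the replicates of a group than between the groups on the log2 scale, and in the same sense in both groups. Pdia3, a disulphide isomerase of glycoproteins, was at 1066 and 587 CPM in libraries 3 and 4, labelled knockout, and at 1150 and 521 CPM in control libraries 1 and 2. Ddost, a subunit of the oligosaccharyltransferase, was at 46.8 and 19.6 CPM in libraries 3 and 4 against 110.3 and 27.2 CPM in controls. Sdf2l1 followed the same order, with the first library of each group the higher. The immediate early genes Junb (121.2 and 57.3 CPM in libraries 3 and 4 against 197 and 33.2 CPM in controls) and Ier2 (62.7 and 29.2 CPM in libraries 3 and 4 against 102.9 and 21.8 CPM in controls) had it as well. The cytosolic chaperone Hsph1 ran the other way, at 94.0 and 414 CPM in libraries 3 and 4 against 186 and 259.6 CPM in controls. These genes were chosen after their values were seen, and over all 14863 genes tested the first minus second library differences of the 2 genotypes correlated at r = 0.0709.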
